A study of Mus musculus with 8 samples.

Results

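The goblet cell effector genes described here are 10 genes chosen by symbol from the 45777 genes of a count table of mouse colonic organoids: Tff3, Fcgbp, Clca1, Zg16, Spink4, Retnlb, Agr2, Ern2, Sytl2 and Bcas1. Of these 10 genes, 9 had at least 108 counts in every library, and all 9 passed the low-count filter that left 14945 genes to test. Retnlb had no count in any library. The organoids are three-dimensional epithelial cultures grown in Matrigel from colonic crypts of male mice aged 9 weeks. In the 4 KO libraries (replicates 5 to 8), Reg3a, which encodes a secreted antimicrobial lectin, was deleted between loxP sites around exons 2 to 4 by Cre under the Villin promoter, which is active in intestinal epithelium (Reg3aΔIEC). The 4 fl libraries (replicates 13 to 16) carried the loxP sites in both copies without Cre (Reg3afl/fl; their genotype label reads WT). All were collected 3 days after passage, with no treatment, at a passage of at most 15. The comparison asks whether these genes are at other levels in untreated epithelium that carries the Reg3a deletion. Reg3a itself had 0 counts in all 8 libraries, fl included, so its count does not check the genotype labels. No difference in Reg3a RNA between the groups was detected.

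Goblet cells are the mucus-secreting cells of the intestinal epithelium. They fold very large mucins in the endoplasmic reticulum, store them in granules and release them together with smaller proteins that stabilise, process or protect the mucus layer. The transcription factor ATOH1 commits crypt cells to the secretory lineages, and SPDEF acts after it in goblet cell maturation.

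Library totals ran from 37182098 to 49256171 counts. Replication is stated in 2 ways in the labels: 4 wells of 1 mouse per genotype, or 3 mice per genotype in triplicate. Spread between libraries may thus be technical only, p-values measure no more than that spread, and genotype cannot be told apart from mouse or organoid line. The share of counts from the mitochondrial genome was higher in KO (1.41% to 1.74%) than in fl (0.997% to 1.23%) in every library. Epithelial markers were present in all libraries, with 10 of 10 tested, 3 higher in KO and none lower, and a summed level of 11238 to 12828 TPM. Of 15 markers of immune, endothelial, stromal, muscle and glial cells, 3 could be tested and none was called by edgeR, DESeq2 or limma-voom, nor at an unadjusted p under 0.05. Their counts summed to between 36 and 59 per library except in KO replicate 6, which had 602, of which 480 were from Lyz2, the lysozyme gene of macrophages and other myeloid cells. Lyz2 had 0 counts in the other 7 libraries, and KO replicate 6 also had 20 counts for the endothelial Pecam1 and 14 for Kdr. Results without that library are given below.

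Levels of different genes were compared as TPM, the authors' values scaled for transcript length. In fl, Agr2 was the most abundant of the 10 genes at 164 ± 16.3 TPM (SD, n = 4), above 93.3% of the genes tested, followed by Tff3 at 133 ± 16.3 TPM. Spink4 (40.8 ± 8.34 TPM) and Zg16 (36.1 ± 12.2 TPM) formed a middle pair, and Fcgbp stood at 14.9 ± 1.94 TPM. The lowest group held Ern2 (4.78 ± 0.493), Sytl2 (4.43 ± 0.194), Clca1 (4.29 ± 2.48) and Bcas1 (3.96 ± 0.327 TPM). Ranges of neighbours overlapped between Agr2 and Tff3, between Spink4 and Zg16 and throughout the lowest group, so that only 3 of the 8 steps in the order were larger than the spread of the fl libraries. In KO the order was Agr2 (112 ± 14.6 TPM), Tff3 (73.8 ± 10.3), Spink4 (27.9 ± 6.53), Zg16 (23.4 ± 7.21), Fcgbp (11.3 ± 0.922), Ern2 (4.21 ± 0.524), Sytl2 (3.59 ± 0.477), Bcas1 (2.80 ± 0.295) and Clca1 (2.52 ± 0.642 TPM). There, 5 of the 8 steps had no overlap, including the step from Agr2 to Tff3. The mucin gene Muc2, whose product forms the mucus gel, stood at 2.06 ± 0.169 TPM in fl and 1.73 ± 0.288 TPM in KO. These means were below those of every effector gene with counts, although Clca1 had 1.91 TPM in fl replicate 16. By CPM, which is not scaled for length, the fl mean of Muc2 (7.27) was above those of Clca1 (6.44) and Bcas1 (6.01).

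**Figure D1:**
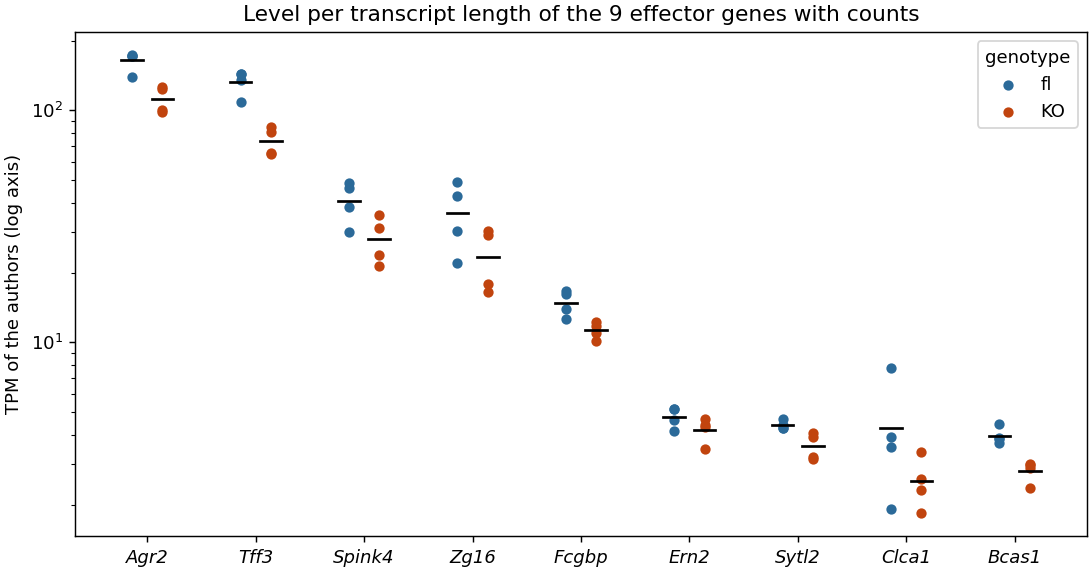
Level of the 9 effector genes with counts in each library, in TPM on a log axis, ordered by the fl mean; points are libraries (blue fl, red KO) and bars are means of 4. Agr2 and Tff3 lie at or above 64.7 TPM in every library, while Ern2, Sytl2, Clca1 and Bcas1 lie at or below 7.77 TPM.

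Promoter sequences were available for 2 of the 10 genes, Fcgbp and Agr2, from RefSeq (GRCm38.p6). They are shown because both transcripts were lower in KO and no library of one genotype overlapped those of the other, so they let the DNA before 2 of the genes that moved together be read side by side. Each is the 250 bases before the annotated start, on the plus strand: chr7:28070986-28071235 for Fcgbp and chr12:35992675-35992924 for Agr2. Capitals mark every match, on either strand, to the motifs searched.
Fcgbp: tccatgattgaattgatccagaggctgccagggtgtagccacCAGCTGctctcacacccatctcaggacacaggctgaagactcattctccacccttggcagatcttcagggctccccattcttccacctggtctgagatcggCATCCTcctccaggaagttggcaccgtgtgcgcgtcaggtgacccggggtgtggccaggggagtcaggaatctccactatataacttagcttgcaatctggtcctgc
Agr2: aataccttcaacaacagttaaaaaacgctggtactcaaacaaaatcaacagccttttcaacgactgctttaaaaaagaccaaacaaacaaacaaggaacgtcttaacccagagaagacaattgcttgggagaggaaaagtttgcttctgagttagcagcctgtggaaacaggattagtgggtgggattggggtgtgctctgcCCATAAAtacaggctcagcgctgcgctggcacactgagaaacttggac
The motifs searched were CAGCTG and CAGATG (E-boxes of the ATOH1 type), TGTTTAC and TATTTAC (FOXA), TTTATNG (CDX), AGGATG (SPDEF), CCACGTC (XBP1), TTCNNNGAA (STAT3) and TATAAA (the box of core promoters), and none of the matches overlapped another. In the Fcgbp window, CAGCTG begins 208 bases before the start, and 13.0% of all 32851 promoter windows of this length in the table hold it. AGGATG lies there on the minus strand, 107 bases before the start, and 14.1% of windows hold it. The only match in the Agr2 window is TTTATNG on the minus strand, 48 bases before the start, held by 9.81% of windows. The 6 other motifs are held by 1.97% (CCACGTC), 2.73% (TATTTAC), 3.17% (TGTTTAC), 7.02% (TTCNNNGAA), 12.4% (TATAAA) and 14.4% (CAGATG) of windows, and their letters are in neither of these windows. A match describes the letters and says nothing of binding.

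Of the 9 genes tested, 6 were lower in KO and none was higher at an adjusted p under 0.05 (edgeR quasi-likelihood test, Benjamini-Hochberg adjustment over all genes tested), which is what "called" means in the following. Over all 14945 genes, 8.26% were called lower and 7.63% called higher. The median log2 fold change of the 9 genes was -0.58, beside -0.0012 over all genes tested. At an unadjusted p under 0.05, 8 were lower and none higher. The share of all genes at this unadjusted threshold was not counted, so the unadjusted counts here and for the other lists have no background. DESeq2 and limma-voom also called 6 lower and none higher. In 4 of the 9 genes every KO library lay below every fl library, which held for 10.3% of all genes tested. In bulk RNA, fewer goblet cells and less RNA per goblet cell cannot be told apart. Bulk RNA also does not show how much of these transcripts came from goblet cells and how much from other epithelial cells.

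**Figure D2:**
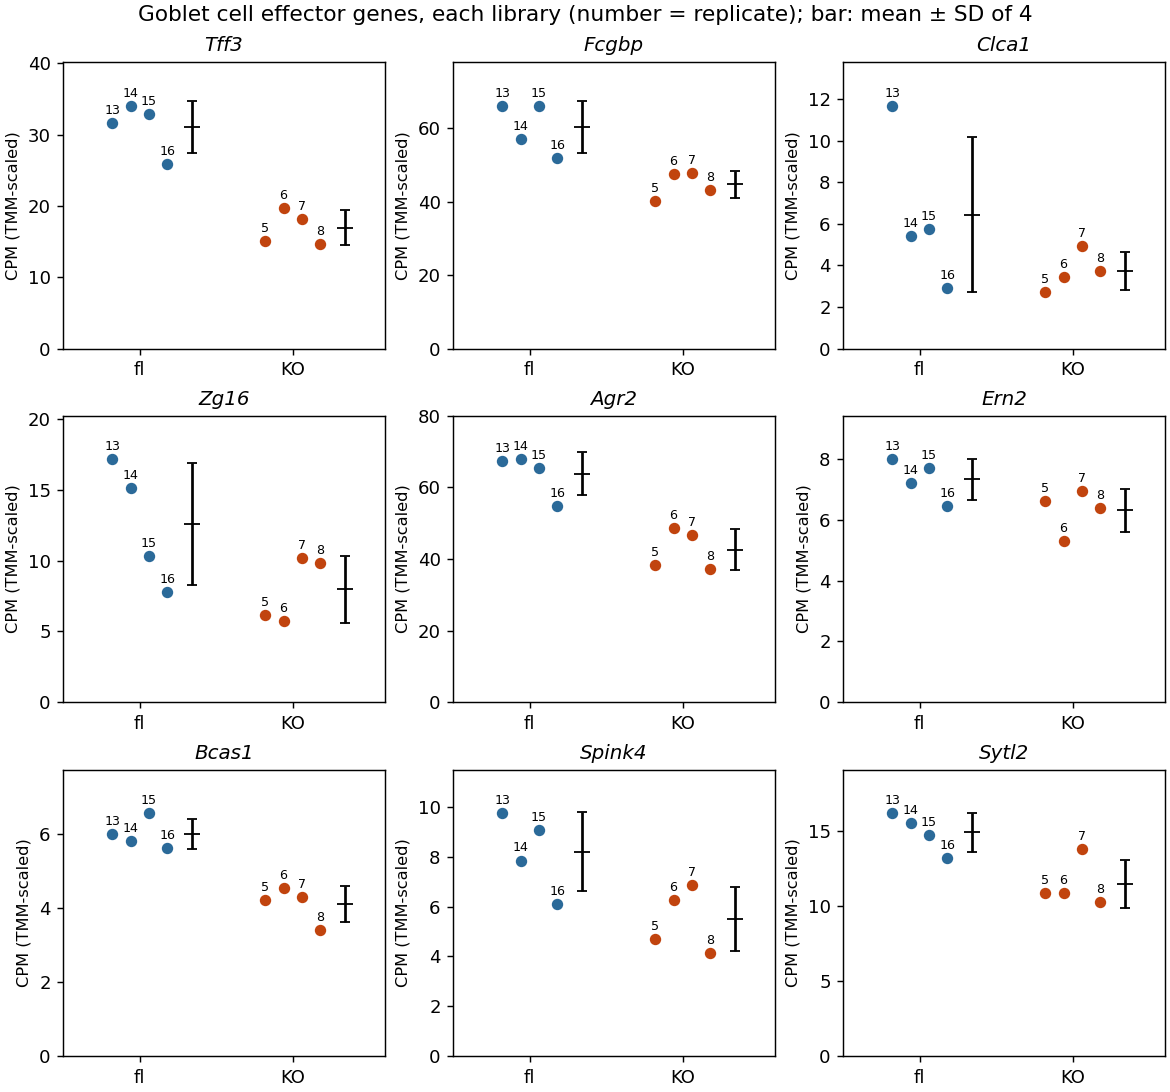
TMM-scaled CPM of each effector gene with counts, by genotype; points are libraries with their replicate number, and the black bar is the mean ± SD of 4. Tff3, Fcgbp, Agr2 and Bcas1 show no overlap between genotypes, while in Clca1, Zg16, Ern2, Spink4 and Sytl2 the lowest fl library, replicate 16, falls within the KO range.

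Tff3, on chromosome 17 (31125306 to 31129611, GRCm38, NCBI Gene ID 21786), encodes a trefoil peptide secreted with the mucins and known for its part in epithelial restitution. Across fl replicates 13, 14, 15 and 16 it stood at 31.6, 34.03, 32.9 and 25.9 CPM, and across KO replicates 5, 6, 7 and 8 at 15.0, 19.8, 18.2 and 14.7 CPM (read counts relative to library size, scaled by TMM). The highest KO library stayed below the lowest fl library. Its level in KO was 54.4% of that in fl, a log2 fold change of -0.88 ± 0.10 (SE, adjusted p = 8.95e-05, edgeR), and no single library left out changed the call (log2 fold change -0.96 to -0.82).

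Fcgbp, on chromosome 7 (28071236 to 28120864, Gene ID 215384), encodes the IgG Fc-binding protein, a large constituent of colonic mucus. It measured 65.9, 57.0, 66.1 and 51.8 CPM in fl replicates 13 to 16 and 40.1, 47.4, 47.9 and 43.3 CPM in KO replicates 5 to 8. The genotypes did not overlap, although fl replicate 16 lay close to the KO libraries. The log2 fold change was -0.43 ± 0.08 (SE, adjusted p = 0.00266, edgeR) and was called without any single library.

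Clca1, on chromosome 3 (145004537 to 145032776, Gene ID 23844), encodes a metalloprotease that goblet cells secrete and that cleaves MUC2. Its levels were 11.7, 5.39, 5.77 and 2.91 CPM in fl replicates 13 to 16, and 2.72, 3.45, 4.92 and 3.75 CPM in KO replicates 5 to 8. The highest fl library was 4.01 times the lowest, and that lowest library sat among the KO libraries. The log2 fold change of -0.80 ± 0.31 (SE) was not called (adjusted p = 0.105, edgeR). It was -1.03 and called without fl replicate 16 (adjusted p = 0.0197, edgeR), and -0.35 without fl replicate 13 (0.390). The size of the difference thus moved with 2 fl libraries. Whether reads were shared with other CLCA genes was not tested.

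Zg16, on chromosome 7 (127050156 to 127052675, Gene ID 69036), encodes a lectin-like protein of mucus that binds the cell wall of Gram-positive bacteria. It stood at 17.1, 15.1, 10.3 and 7.80 CPM in fl replicates 13 to 16 and at 6.13, 5.71, 10.2 and 9.86 CPM in KO replicates 5 to 8. Both genotypes spread widely: KO replicates 7 and 8 lay above fl replicate 16. Zg16 had a log2 fold change of -0.66 ± 0.23 (SE) that was not called (adjusted p = 0.0699, edgeR). Without fl replicate 16 it was -0.83 and called (adjusted p = 0.0209, edgeR).

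Spink4, on chromosome 4 (40920056 to 40931395, Gene ID 20731), encodes a small secreted protein of the Kazal-type serine protease inhibitor family. Its levels were 9.76, 7.86, 9.09 and 6.13 CPM in fl replicates 13 to 16 and 4.68, 6.25, 6.88 and 4.15 CPM in KO replicates 5 to 8. KO replicates 6 and 7 lay above fl replicate 16, so the genotypes overlapped. The log2 fold change was -0.58 ± 0.17 (SE, adjusted p = 0.0298, edgeR). The call ended without KO replicate 5 (adjusted p = 0.0967, edgeR), KO replicate 8 (0.0976), fl replicate 13 (0.103) or fl replicate 15 (0.0588), and with no low-count filter (0.0540).

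Retnlb, on chromosome 16 (48816856 to 48818892, Gene ID 57263), encodes RELM-beta, a secreted protein of colonic goblet cells with activity against bacteria. It had 0 counts in all 8 libraries. Finding none leaves room for up to 3 counts, or 0.0609 CPM in the deepest library (fl replicate 14) and 0.0807 CPM in the shallowest (fl replicate 16), and covers counting error only. A difference in Retnlb was not detectable at this depth. The related genes Retn, Retnla and Retnlg were also at 0 counts throughout.

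The other members act inside the cell. Agr2, on chromosome 12 (35992925 to 36004081, Gene ID 23795), encodes a protein disulfide isomerase of the endoplasmic reticulum needed for mucin folding. It measured 67.3, 67.8, 65.4 and 54.9 CPM in fl replicates 13 to 16 and 38.3, 48.6, 46.6 and 37.1 CPM in KO replicates 5 to 8. All KO libraries lay below all fl libraries. Its level in KO was 66.8% of that in fl (log2 fold change -0.58 ± 0.09 SE, adjusted p = 6.92e-04, edgeR), called without any single library.

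Ern2, on chromosome 7 (122169893 to 122186239, Gene ID 26918), encodes IRE1-beta, the endoplasmic reticulum stress sensor of mucus-secreting epithelia. It stood at 7.98, 7.21, 7.70 and 6.45 CPM in fl replicates 13 to 16 and 6.62, 5.30, 6.94 and 6.39 CPM in KO replicates 5 to 8. The KO and fl values overlapped. Among the 9 genes Ern2 had the smallest difference, a log2 fold change of -0.22 ± 0.10 (SE), which was not called (adjusted p = 0.180, edgeR) and remained uncalled under all 15 other settings tried. Its ubiquitous relative Ern1 had a log2 fold change of -0.12 ± 0.07 (SE, adjusted p = 0.278, edgeR).

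Sytl2, on chromosome 7 (90302211 to 90410719, Gene ID 83671), encodes a synaptotagmin-like protein that binds RAB27 on secretory vesicles. Its levels were 16.2, 15.6, 14.7 and 13.2 CPM in fl replicates 13 to 16 and 10.9, 10.9, 13.8 and 10.3 CPM in KO replicates 5 to 8. KO replicate 7 stood apart from the other KO libraries and above fl replicate 16. The log2 fold change was -0.38 ± 0.10 (SE, adjusted p = 0.0155, edgeR). The call ended without KO replicate 5 (adjusted p = 0.0543, edgeR), KO replicate 8 (0.0629) or fl replicate 13 (0.0605). The ratio of the authors' TPM to CPM varied 1.44 times between libraries for Sytl2 and at most 1.09 times for the 8 others, so TPM and counts do not give the same order of its KO libraries.

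Bcas1, on chromosome 2 (170343973 to 170427911, Gene ID 76960), was chosen as a goblet cell marker. It measured 6.02, 5.82, 6.58 and 5.64 CPM in fl replicates 13 to 16 and 4.23, 4.54, 4.30 and 3.40 CPM in KO replicates 5 to 8. The genotypes did not overlap. The log2 fold change was -0.55 ± 0.11 (SE, adjusted p = 0.00377, edgeR), called without any single library. A long noncoding gene, Bcas1os2, overlaps Bcas1 and had at most 2 counts in a library.

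Without KO replicate 6, the library with Lyz2 counts, the same number of these genes, 6, was called lower, with Sytl2 at an adjusted p = 0.0469, edgeR and Spink4 at 0.0352. Without fl replicate 16 the number was 8, with Clca1 and Zg16 added. It was 4 without KO replicate 5, KO replicate 8 or fl replicate 13.

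The spread of these genes between libraries of 1 genotype was wider than that of the median gene. The coefficient of variation of CPM had a median of 11.7% in fl and 14.0% in KO over the 9 genes, beside 7.24% and 5.29% over the 6352 tested genes whose mean CPM lay within the range of the 9. Clca1 varied most in fl (57.7%) and Zg16 most in KO (29.8%), where counting error alone gives 5.94% and 5.21%. Fcgbp had the smallest coefficient in KO (8.24%, counting error 2.20%) and Bcas1 in fl (6.75%, counting error 6.15%). These counting errors treat each count as independent and would be larger if both mates of a pair were counted. The highest library was at least 1.5 times the lowest for Clca1, Zg16 and Spink4, in both genotypes.

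Replicate 16 was the lowest fl library for all 9 genes, while it was the lowest of the 4 fl libraries for 24.5% of all genes tested. Relative to the fl mean, its geometric mean over the 9 genes was 0.788. It was also the library with the fewest counts and, at 0.997%, the smallest mitochondrial share, and the part of either in its low values was not tested. It was the lowest fl library for 10 of 19 other goblet cell genes and 3 of 10 goblet transcription factors, but also for 6 of 12 enteroendocrine and 6 of 15 absorptive genes. Fl replicate 13 was the highest for 5 of the 9 genes, with a relative geometric mean of 1.19, and for 19.2% of all genes tested. Within KO, replicate 7 was the highest for 6 genes (1.17) and replicate 8 the lowest for 5 (0.942), with replicate 5 at 0.902 and replicate 6 at 1.01. Over all genes tested, KO replicate 7 was the highest for 23.7% and KO replicate 8 the lowest for 24.4%.

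**Figure D3:**
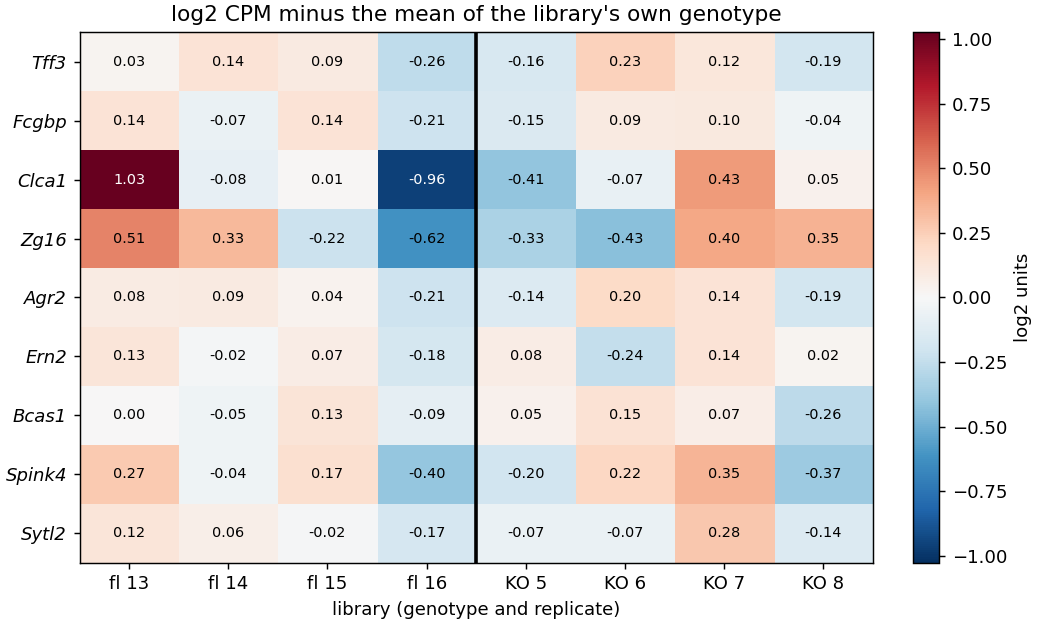
Log2 CPM of each effector gene in each library minus the mean of the 4 libraries of that genotype; red is above and blue below that mean, and the black line separates fl from KO. The column of fl replicate 16 is below the mean for all 9 genes, and the widest deviations are those of Clca1 and Zg16.

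The genes did not all follow the same libraries. As a description over 8 libraries, with genotype means removed, the correlation of a gene with the mean of the other members was highest for Spink4 (Pearson r = 0.94), Fcgbp (0.84), Sytl2 (0.83), Agr2 (0.81) and Clca1 (0.81), and lower for Tff3 (0.74), Zg16 (0.49), Bcas1 (0.44) and Ern2 (0.40). The points share the libraries and their depth. Zg16 and Tff3 differed in KO replicate 6, where Tff3 had its highest and Zg16 its lowest KO level. Genes that are not members were compared with the mean of all members. They were 9799 protein-coding genes with a mean of at least 5 CPM. The pattern most like that mean was that of Decr1, which encodes a mitochondrial enzyme of fatty acid oxidation (r = 0.99). Decr1 rose in KO (log2 fold change 0.21 ± 0.05 SE, adjusted p = 0.00843, edgeR). Next came Eif3j2 (0.96), Skap2 (0.96), Gtf2a2 (0.95), Dkc1 (0.95) and Dimt1 (0.95), none of them called between genotypes. These are the highest of 9799 correlations over 8 libraries, and how high such values reach by selection alone was not tested.

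Ratios of counts between 2 of these genes within a library do not depend on scaling. Of 36 such ratios, 5 (13.9%) did not overlap between the genotypes. This share is below the 22.1% of all pairs among 6351 tested genes with counts in every library and a mean CPM in the range of the 9 genes, so the number of separate ratios is not a result about these genes. The 5 ratios all included Tff3, the gene with the largest difference between genotypes, and are given as values. Per count of Agr2, there were 0.470, 0.502, 0.503 and 0.471 counts of Tff3 in fl replicates 13 to 16, and 0.392, 0.407, 0.391 and 0.396 in KO replicates 5 to 8. The ratio varied by 3.83% in fl and 1.85% in KO (coefficient of variation), less than either gene alone, although both levels moved between libraries. Counting error alone gives 3.57% for Tff3 and 2.25% for Agr2 in KO, and 2.69% and 1.88% in fl. The 1.85% in KO is below the counting error of either gene, so its small size is not a result about this pair. Tff3 was also lower in KO relative to Fcgbp (0.378 ± 0.0316 against 0.519 ± 0.0532, SD, n = 4), Ern2 (2.73 ± 0.684 against 4.24 ± 0.348), Bcas1 (4.11 ± 0.381 against 5.17 ± 0.530) and Sytl2 (1.49 ± 0.228 against 2.08 ± 0.150). These ratios were examined after the values were seen and carry no test.

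**Figure D4:**
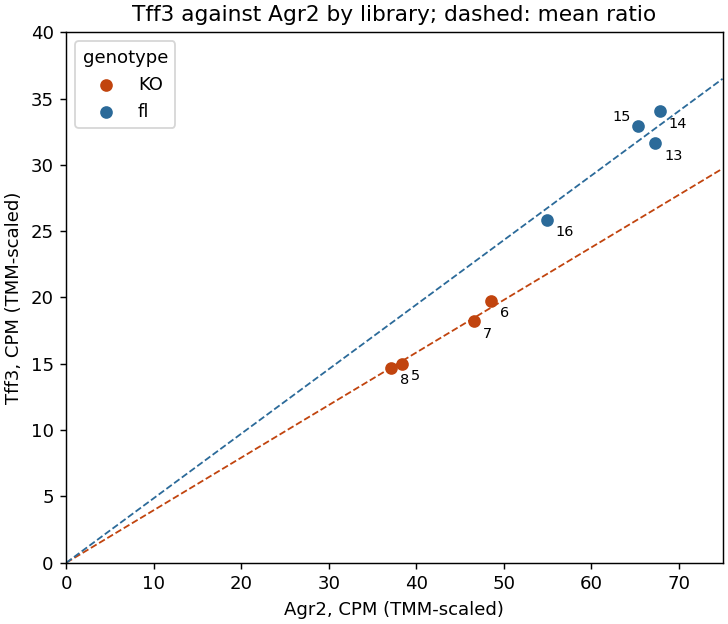
Tff3 against Agr2 in each library, both in TMM-scaled CPM, with replicate numbers; dashed lines pass through 0 with the mean count ratio of each genotype. The KO libraries lie along a lower line (mean ratio 0.396) than the fl libraries (0.487).

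Of 11 listed transcription factors that act in the goblet lineage or, as Hes1 does, oppose Atoh1, 10 could be tested. In KO, 5 were lower and 1 was higher, and the median was -0.33 on the log2 scale. Spdef had 1.61, 1.43, 1.49 and 1.30 CPM in fl replicates 13 to 16 and 0.851, 0.928, 1.01 and 0.796 CPM in KO replicates 5 to 8, with no overlap. It fell by 0.70 on the log2 scale (SE 0.17, adjusted p = 0.0153, edgeR), a call that ended without KO replicate 8 (0.0569) or fl replicate 13 (0.0505). Atoh1, which stands at the head of the secretory lineages, had 2.85, 1.92, 2.64 and 1.94 CPM in fl and 1.40, 1.94, 1.96 and 0.990 CPM in KO. These values overlapped, and the log2 fold change of -0.57 ± 0.22 was not called (adjusted p = 0.0981, edgeR). The forkhead factor genes Foxa2 (-0.37 ± 0.08, adjusted p = 0.00513, edgeR) and Foxa3 (-0.30 ± 0.08, 0.0148) fell, as did Xbp1 (-0.20 ± 0.05, 0.00954), a factor activated by IRE1. The Foxa3 call ended without KO replicate 5, 7 or 8 or fl replicate 13 (edgeR adjusted p 0.0526 to 0.0559). The remaining calls, named after their values were seen, were Creb3l4 (lower) and Hes1 (higher), a Notch target. Hes1 as the 1 higher gene of 10 is a share near the 7.63% of all genes called higher, which is no result about this list. The number called lower was 3 without KO replicate 5 and 2 without KO replicate 8 or without fl replicate 13. The Hes1 call ended without KO replicate 5, 6 or 8 or fl replicate 13 or 15.

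Among 20 other goblet cell genes, 19 were tested, 3 were lower and 3 higher, at a median of -0.29. Muc2 had 8.13, 7.11, 7.02 and 6.83 CPM in fl replicates 13 to 16 and 5.20, 6.44, 7.11 and 5.08 CPM in KO replicates 5 to 8. Its log2 fold change of -0.29 ± 0.11 (SE) was not called (adjusted p = 0.115, edgeR), except without KO replicate 7 (-0.38, 0.0489). The membrane mucin gene Muc1 (-0.98 ± 0.15, adjusted p = 7.59e-04, edgeR) and the tetraspanin gene Tspan13 (-0.41 ± 0.06, 6.92e-04) fell. In the other direction, Gcnt3, which encodes a mucin-type glycosyltransferase (0.67 ± 0.06, adjusted p = 9.50e-06, edgeR), and Guca2a, which encodes guanylin (0.71 ± 0.12, 0.00129), rose. Which cells expressed the genes of this list, those that fell and those that rose, was not tested. Klk1 (lower) and Lrrc26 (higher) were the remaining calls, named after their values were seen. The number called lower was 5 with DESeq2 or without KO replicate 7.

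**Figure D5:**
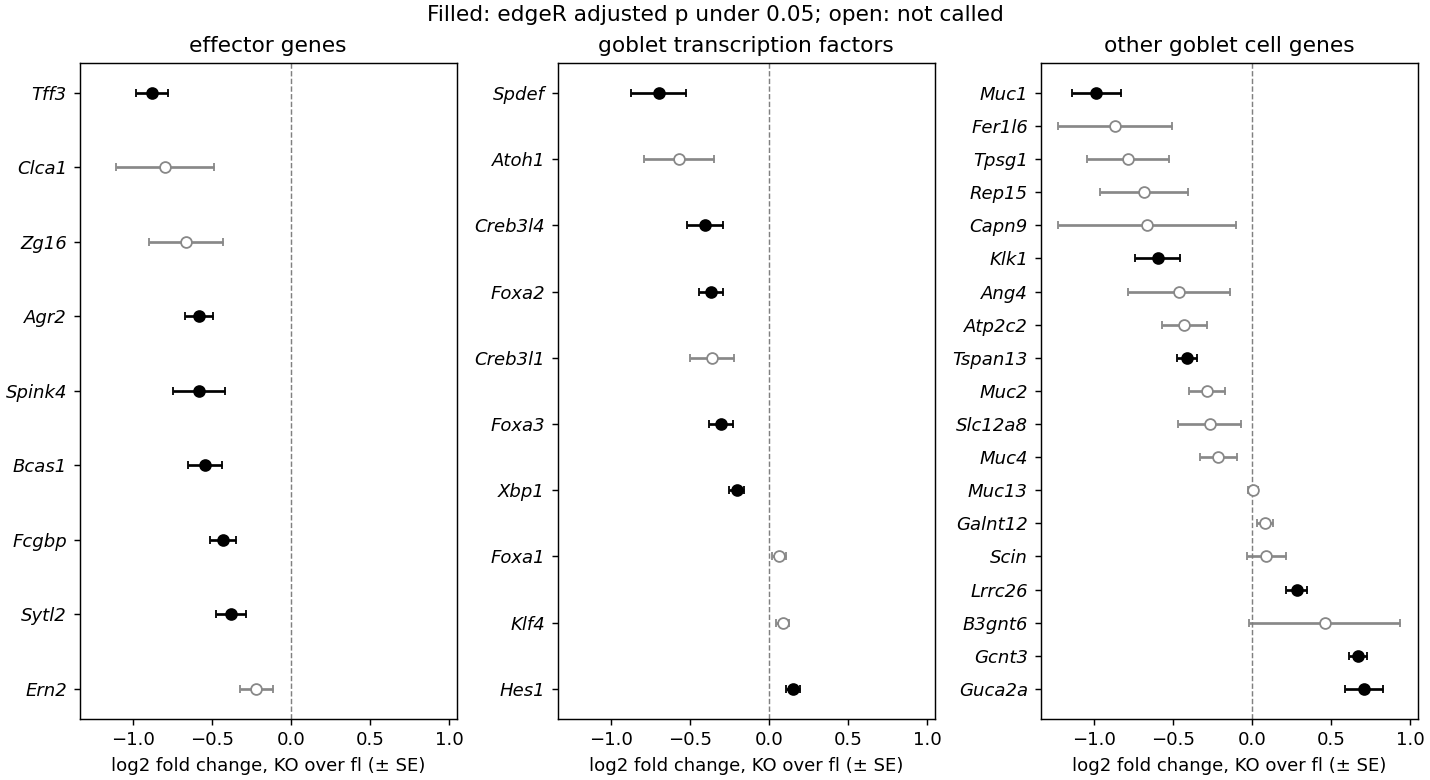
Log2 fold change of KO over fl with its SE for the effector genes, the goblet transcription factors and other goblet cell genes; filled points passed an adjusted p under 0.05. The 9 effector genes all lie below 0, while the other goblet cell genes run from -0.98 (Muc1) to 0.71 (Guca2a).

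Of 23 listed close relatives of the effector genes, 22 were in the table, 12 were tested, 2 were higher and 1 lower in KO, at a median of 0.26, and the 1 lower gene is a share near the 8.26% of all genes. Spink1, which encodes a trypsin inhibitor, fell from 3.57 ± 0.823 to 1.53 ± 0.170 CPM (SD, n = 4; log2 fold change -1.22 ± 0.18 SE, adjusted p = 4.90e-04, edgeR). Clca3b rose from 40.9 ± 3.98 to 50.3 ± 2.51 CPM (0.29 ± 0.07, adjusted p = 0.00868, edgeR). Sytl1 rose by 0.23 (adjusted p = 0.0424, edgeR), a call that ended in 7 of 8 cases when a single library was left out and without the low-count filter. The other gastrointestinal trefoil genes, Tff1 and Tff2, had at most 4 counts in a library, as had the gel-forming mucin genes Muc5ac and Muc5b, and Agr3 had 0.

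Of 12 tested genes of granule exocytosis, 1 was lower and none higher, at a median of -0.073. The 1 lower gene is a share near the 8.26% of all genes, which is no result about exocytosis. That gene was Rab3d, which encodes a small GTPase of secretory granules (-0.16 ± 0.04, adjusted p = 0.0171, edgeR), and the call on Rab3d ended without KO replicate 7 or 8 or fl replicate 13 (0.0526 to 0.0738). At an unadjusted p under 0.05, 2 genes were lower and none higher, and DESeq2 and limma-voom each called 1 lower and none higher. The unfolded protein response, in which AGR2 and IRE1-beta take part, was lower in 10 of 21 tested genes and higher in none, at a median of -0.13. The stress transcription factor genes Atf4 (-0.42 ± 0.05, adjusted p = 8.95e-05, edgeR) and Ddit3 (-0.76 ± 0.10, 2.06e-04) had the smallest adjusted p, followed by the sensor gene Eif2ak3 (-0.27 ± 0.05, 0.00170) and Herpud1 (-0.27 ± 0.05, 0.00406), and all 4 fell. DESeq2 called 1 of these genes higher and limma-voom none, and 1 was higher at an unadjusted p under 0.05. The number called lower was 6 without KO replicate 8.

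Markers of other epithelial cells moved with the genotype too, and their part in the lower goblet genes was not tested. Absorptive colonocyte genes were higher in 10 of 15 and lower in 1 of 15 (0 with DESeq2 or limma-voom), with a summed level of 9381 to 10177 TPM in KO and 5686 to 6593 TPM in fl. Of 12 tested enteroendocrine genes 4 were lower and none higher in KO (31.4 to 55.2 TPM summed in KO, 60.8 to 86.7 TPM in fl). At an unadjusted p under 0.05, 6 enteroendocrine genes were lower and none higher, and DESeq2 called 3 lower and limma-voom 4, with none higher. Of 8 tested Paneth and deep crypt secretory genes 4 were lower and none higher (1274 to 1425 TPM in KO, 1655 to 1727 TPM in fl). None was higher at an unadjusted p under 0.05 or with DESeq2 or limma-voom. Most of this summed level came from Nupr1 (mean 869 TPM in KO, 1174.5 TPM in fl) and Cd24a (444 and 489 TPM), both called lower. The summed level thus mainly follows Nupr1 and Cd24a and does not stand for these cell types. Kit (mean 0.425 CPM in KO, 0.920 CPM in fl) and Dll4 (3.40 and 4.56 CPM) were also called lower. Dll4 did not stay under the threshold in every fit with 1 library removed. Reg4, Mmp7, Pla2g2a and Itln1 were not called (edgeR adjusted p 0.152 to 0.466). The Paneth cell defensin genes Defa24 and Defa30 were at 0 counts in every library. Lyz1 had 29 counts in KO replicate 6, the library with Lyz2 counts, 0 in KO replicates 5, 7 and 8, and 5 to 12 in the fl libraries. Tuft cell genes were nearly undetected, with 2 of 10 tested, 1 lower and 4 at 0 counts in every library, among them the lineage factor gene Pou2f3 (summed level 4.62 to 5.33 TPM in KO and 3.83 to 5.72 TPM in fl). The 1 lower gene was Avil, and its call ended without KO replicate 5, 7 or 8, without fl replicate 13, 15 or 16, and with no low-count filter or a stricter one.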

How the data were processed

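RNA of 8 organoid cultures (4 KO, 4 fl) was sequenced from stranded mRNA libraries, per the labels' protocols. The deposited table holds whole-number read counts per gene, not normalized. Per the submitters' processing notes the authors used TopHat2, Bowtie2, TopHat, HTSeq and build GRCm38, with no version or role. The sources used here do not say if HTSeq used the strand. The authors' TPM and the authors' FPKM, in the same deposited table, were used only to describe levels. Counts of 2 were more frequent than counts of 1 in every library, so both mates of a pair may have been counted, and a count of 0 then allows up to 6 counts (0.122 to 0.161 CPM). Coordinates are from RefSeq (GRCm38.p6), matched by gene ID.

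After filterByExpr and TMM scaling, counts were tested with edgeR 4.0.16 (quasi-likelihood, R 4.3.3), with Benjamini-Hochberg adjustment over 14945 genes and a threshold of 0.05. The SE is the log2 fold change divided by the square root of F. The step was tested on simulated data in which all genes had the same spread. Of 50 genes changed 1.25-fold, 20 were called in the right direction, and of 50 changed 1.5-fold, 48 were. All 50 were called at 2-fold and at 3-fold, and 8 unchanged genes were called. Recovery was not tested for genes with a wider spread, such as Clca1 and Zg16. Libraries of 1 genotype differed (chi-square over its degrees of freedom 4.96 to 24.7), so none was a copy. Log2 CPM used a prior count of 2. Alternatives were DESeq2 1.42.0, limma-voom (limma 3.58.1), other scalings and filters, an adjusted p of 0.01, FPKM, and leaving out each library. Tables and plots used pandas 2.3.3 and matplotlib 3.10.9.

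The members, 13 other gene lists and the rules were chosen with earlier results of these data known. The rule for naming genes besides the members selected Muc2, Spdef, Atoh1 and the 6 genes most like the members. It also selected up to 4 genes per list with the smallest adjusted p under 0.05 (the 2 most abundant where none passed). Not all of these are named here, and genes outside the rule, such as Creb3l4, Ern1, Reg4 and Olfm4, are named too.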

Additional observations from a re-analysis of the deposited data

Results flagged for a closer look

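Sytl2 in KO replicate 7 stood at 13.8 CPM, while the other 3 KO libraries lay between 10.3 and 10.9 CPM, a gap that took up most of the range of the group. It was the only such value in 18 groups of 4 libraries, 2 for each of the 9 genes with counts, and chance alone gives about 1 in 20. Without this library the log2 fold change of Sytl2 was -0.48 (adjusted p = 0.00291, edgeR).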

How the results depend on the processing

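All 9 genes with counts kept a negative log2 fold change under each of the 15 other fits. Tff3, Fcgbp, Agr2 and Bcas1 were called in all 15, Sytl2 in 12, Spink4 in 10, Clca1 and Zg16 in 1 and Ern2 in none. The number of the effector genes called lower was 6 under every other scaling, with DESeq2, with limma-voom and with at least 1 CPM in 4 libraries. It was 5 without a low-count filter, 4 at an adjusted p under 0.01, and 4 to 8 when a library was left out. At an adjusted p under 0.01, 562 of all genes were higher and 597 lower, beside 1140 and 1234 at 0.05, and 12 genes of the other lists were higher, beside 19. With a library left out, 696 to 1386 genes were higher (757 without KO replicate 5, 696 without KO replicate 8) and 724 to 1404 lower (724 without KO replicate 8, 808 without fl replicate 13). The order of levels in FPKM had the same number of steps without overlap as in TPM, and the number of genes varying at least 1.5 times was 3 in each genotype with TMM, with DESeq2 size factors and with library totals alone. No paired analysis was possible because the genotypes share no replicate number. Depth limits Retnlb, for which only an upper bound can be given.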

Other observations

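Of 12 tested proliferation genes 10 were lower and none higher by edgeR, DESeq2 and limma-voom (12 lower and none higher at an unadjusted p under 0.05), at a median log2 fold change of -0.33. Of 8 tested crypt stem cell genes 4 were lower and 1 higher, at a median of -0.20. The stem cell marker Olfm4 had at most 6 counts in a library. Cdx2, which encodes an intestinal identity factor, rose from 144 ± 8.06 to 182 ± 1.76 CPM (SD, n = 4; log2 fold change 0.33 ± 0.04 SE, adjusted p = 2.40e-04, edgeR).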
